A study of Homo sapiens with 6 samples.

Results

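The zinc-dependent histone deacetylases (HDACs) were examined at the mRNA level in BaF3-T315I cells exposed to the HDAC inhibitor I13. The members were chosen by gene symbol from a family list of 10 genes, and 9 of the 10 had a row among the 22413 genes of the deposited table. Hdac11, the only class IV enzyme, was not analysed here, and neither was the class IIa gene Hdac9. BaF3-T315I is a mouse pro-B cell line into which BCR-ABL, the fusion kinase of chronic myeloid leukemia, was stably introduced with its T315I mutation. All 6 samples carried this transgene. There were 3 control samples, for which the sample labels give no vehicle and no time, and 3 samples treated with 1.1 µM of I13, which the study's description of the sequencing puts at 48 h. I13 is an indole-3-butyric acid derivative known to inhibit the HDAC1 and HDAC3 enzymes. The labels name the organism as human, whereas every identifier used here is a mouse gene. Nothing in the labels says that the samples of a group were separate cultures, so the p-values measure the spread between these samples only.

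HDACs remove acetyl groups from lysines of histones and other proteins, which compacts chromatin and generally lowers transcription. The class I enzymes Hdac1, Hdac2, Hdac3 and Hdac8 are mostly nuclear, and the first 3 of them work inside large corepressor complexes. The class IIa enzymes Hdac4, Hdac5 and Hdac7 have weak catalytic activity of their own, shuttle between nucleus and cytoplasm, and repress through MEF2 transcription factors and the Hdac3 complex. The class IIb enzymes act outside histones, Hdac6 on tubulin and other cytoplasmic proteins and Hdac10 on polyamines. An HDAC inhibitor acts on the proteins, and the question put to these data was whether the mRNA of the enzymes themselves differed between treated and control cells.

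Levels are given as FPKM, fragment counts scaled by gene length and by library size, so they can be compared between genes as far as those lengths hold. Values of single samples are listed in the order of replicates 1, 2 and 3. The FPKM could be turned back into whole fragments, which gave library totals from 16762119 to 17722950 fragments. The 9 Hdac genes held between 225 and 2091 fragments in a sample, so counting alone gave a standard deviation of at most 6.67% in any sample. Blood cell genes were expressed as the label implies, with the IL-3 receptor chain Csf2rb between 239 and 838 FPKM and the leukocyte antigen Ptprc between 10.2 and 15 FPKM. Csf2rb and its close paralog Csf2rb2 may share fragments. The 5 progenitor markers found summed to between 467 and 911 FPKM in the control and between 942 and 1690 FPKM after I13, mostly from Csf2rb and Csf2rb2. Of the others, Ptprc did not overlap between groups and was higher after I13, as were 9.82% of all genes tested, while Spi1 and Il3ra overlapped. The B lineage genes Cd79a and Cd79b were expressed in all samples, whereas Ebf1, Pax5, Vpreb1 and Igll1 were at 0.107 FPKM or less. The 4 T cell markers summed to at most 0.385 FPKM, and the collagen gene Col1a1 was at 0.13 FPKM or less. The 4 macrophage markers summed to between 23.0 and 46.4 FPKM in the control and between 53.0 and 87.2 FPKM after I13, mostly from Adgre1, while Csf1r stayed at or below 0.0702 FPKM. The 4 erythroid markers summed to between 0.649 and 1.41 FPKM in the control and between 2.43 and 7.72 FPKM after I13. With the replicate block described next, Csf2rb, Csf2rb2, Adgre1 and the globin gene Hba-a1 were called higher after I13, against 1.36% of all genes tested. Without it no marker was, against 0.0329% of all genes tested. The part of these markers in the results was not tested. In bulk RNA, fewer cells of a type and less RNA per cell cannot be told apart.

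All 9 Hdac genes were expressed, and none passed the test for a change with I13. limma was run on log2(FPKM + 0.1) over 12163 genes, those whose FPKM averaged 0.5 or more. Called genes had a Benjamini-Hochberg adjusted p below 0.05 and a log2 fold change of 0.58 or more in size. Of the 9 Hdac genes 0 were called, against 0.0411% of all genes tested (0.0329% higher and 0.00822% lower after I13), and at an unadjusted p below 0.05 there was 1, Hdac10, against 18.6% of all genes. With the replicate number as a block the count was again 0, against 1.89% (2.99% by adjusted p alone), and Hdac10 and Hdac3 had an unadjusted p below 0.05, against 28.0%. The smallest adjusted p from limma over the 9 genes was 0.237 without the block and 0.132 with it. The median log2 fold change of the family was -0.02, where that of all genes tested was -0.01. In size, the median was 0.09 for the family and 0.19 for all genes. The log2 fold change was negative for 6 members and positive for 3, but Hdac8 turned positive when the FPKM were rescaled to TPM or by median ratios, and Hdac6 turned positive with TPM and was at 0.0 with median ratios.

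**Figure D1:**
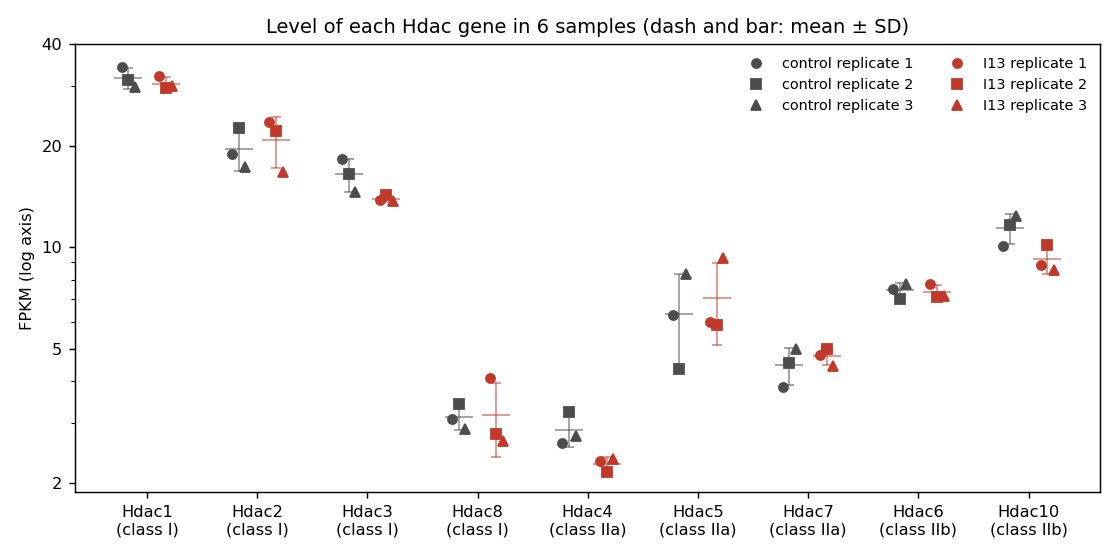
FPKM of each Hdac gene on a log axis, by class, in 3 control (grey) and 3 I13 (red) samples, where the symbol gives the replicate number and the dash and bar the mean ± SD of a group. Hdac1 lies highest and Hdac4 lowest, and the groups are apart only for Hdac3 and Hdac4.

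The class I gene Hdac1 (ENSMUSG00000028800), a catalytic subunit of the Sin3, NuRD and CoREST complexes, was the most abundant member. It measured 34.2, 31.2 and 29.8 FPKM without I13 and 32.2, 29.5 and 29.9 FPKM with it. The groups overlapped, with replicate 1 the highest sample in both. The mean of the controls was 31.8 ± 2.27 and that of the I13 samples 30.5 ± 1.41 FPKM (SD, n = 3 each). limma gave a log2 fold change of -0.05 (standard error 0.09, 95% interval from -0.27 to 0.16). A change by the fold threshold of 0.58 in either direction thus lay outside the interval.

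Hdac2 (ENSMUSG00000019777), the paralog of Hdac1 in the same complexes, measured 18.9, 22.6 and 17.2 FPKM in the control samples. After I13 it was at 23.5, 22.0 and 16.7 FPKM. The groups overlapped over nearly their whole range, and replicate 3 was the lowest sample of both. On the log2 scale the difference was 0.07 (standard error 0.16, 95% interval from -0.30 to 0.45). Its sign depended on single samples, with -0.01 without control replicate 3 and -0.02 without I13 replicate 1. Hdac1 mRNA exceeded Hdac2 mRNA in every sample, with a ratio from 1.38 to 1.81 in the control and from 1.34 to 1.79 after I13.

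Hdac3 (ENSMUSG00000024454), the catalytic subunit of the NCoR corepressor complex, was one of the 2 genes whose groups did not overlap. It measured in the control samples 18.2, 16.5 and 14.6 FPKM, and in the I13 samples 13.8, 14.3 and 13.7 FPKM. Every I13 sample thus lay below every control, although control replicate 3 and I13 replicate 2 were close. The mean of the controls was 16.4 ± 1.82 and that of the I13 samples 13.9 ± 0.305 FPKM (SD, n = 3 each). The estimated log2 fold change was -0.23 (standard error 0.11, 95% interval from -0.48 to 0.02), with an adjusted p of 0.296 from limma. With the block the adjusted p was 0.17. The interval excluded a log2 fold change of -0.58. The ratio of Hdac1 to Hdac3 mRNA was 1.88 to 2.04 in the control and 2.07 to 2.33 after I13.

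Hdac8 (ENSMUSG00000067567), a class I enzyme that works outside these complexes, was far less abundant. It measured 3.09, 3.43 and 2.88 FPKM without I13 and 4.08, 2.79 and 2.66 FPKM with it. The highest and the lowest of the 6 values were both I13 samples. This made a log2 fold change of -0.01 (standard error 0.19, 95% interval from -0.44 to 0.43). Of the class I genes it had the fewest fragments, 225 to 348 in a sample.

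Among the class IIa genes, Hdac4 (ENSMUSG00000026313) was the least abundant member of the family by FPKM and had the largest log2 fold change in size. This rank rests on its recovered length of 15813 bases, since Hdac4 held 570 to 902 fragments in a sample, more than Hdac7 or Hdac8. It measured in the control samples 2.63, 3.24 and 2.75 FPKM, and in the I13 samples 2.32, 2.15 and 2.34 FPKM. The groups did not overlap, and all 3 I13 samples were lower. The mean of the controls was 2.87 ± 0.323 and that of the I13 samples 2.27 ± 0.106 FPKM (SD, n = 3 each). As I13 minus control, the log2 difference was -0.32 (standard error 0.14, 95% interval from -0.65 to 0.01), with an adjusted p of 0.276 from limma and 0.215 with the block. With voom on the recovered fragments and the block the adjusted p was 0.072, the smallest for any Hdac gene under any setting tried. The interval reached past the fold threshold on the lower side.

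Hdac5 (ENSMUSG00000008855) measured 6.29, 4.34 and 8.32 FPKM without I13 and 5.99, 5.87 and 9.25 FPKM with it. It varied most of all members within a group, with replicate 3 the highest and replicate 2 the lowest sample of both groups. The coefficient of variation was 31.5% in the control and 27.3% after I13. limma gave a log2 fold change of 0.17 (standard error 0.27, 95% interval from -0.46 to 0.80), the widest interval in the family. It was -0.07 without control replicate 2 and -0.04 without I13 replicate 3. With the block the standard error was 0.12 and the interval ran from -0.13 to 0.47, which excluded 0.58.

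Hdac7 (ENSMUSG00000022475), the class IIa enzyme best known from lymphocytes and endothelium, measured 3.86, 4.52 and 5.0 FPKM in the control samples. After I13 it was at 4.79, 4.99 and 4.45 FPKM, and the groups overlapped. On the log2 scale the difference was 0.09 (standard error 0.13, 95% interval from -0.21 to 0.40).

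In class IIb, the tubulin deacetylase Hdac6 (ENSMUSG00000031161) was the steadiest gene of the family. It measured in the control samples 7.52, 7.0 and 7.79 FPKM, and in the I13 samples 7.75, 7.10 and 7.16 FPKM. The groups overlapped over nearly their whole range. The estimated log2 fold change was -0.02 (standard error 0.10, 95% interval from -0.25 to 0.21). Its spread within groups was 1.39 times that of counting alone, whereas the ratio was 2.08 to 8.98 for the other 8 genes.

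Hdac10 (ENSMUSG00000062906), the polyamine deacetylase, measured 10.1, 11.6 and 12.3 FPKM without I13 and 8.85, 10.2 and 8.55 FPKM with it. The groups just overlapped, since I13 replicate 2 reached control replicate 1. The mean of the controls was 11.4 ± 1.15 and that of the I13 samples 9.19 ± 0.85 FPKM (SD, n = 3 each). This made a log2 fold change of -0.30 (standard error 0.12, 95% interval from -0.58 to -0.02), with an adjusted p of 0.237 from limma and 0.132 with the block. This was the smallest adjusted p of the family, and it did not pass.

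**Figure D2:**
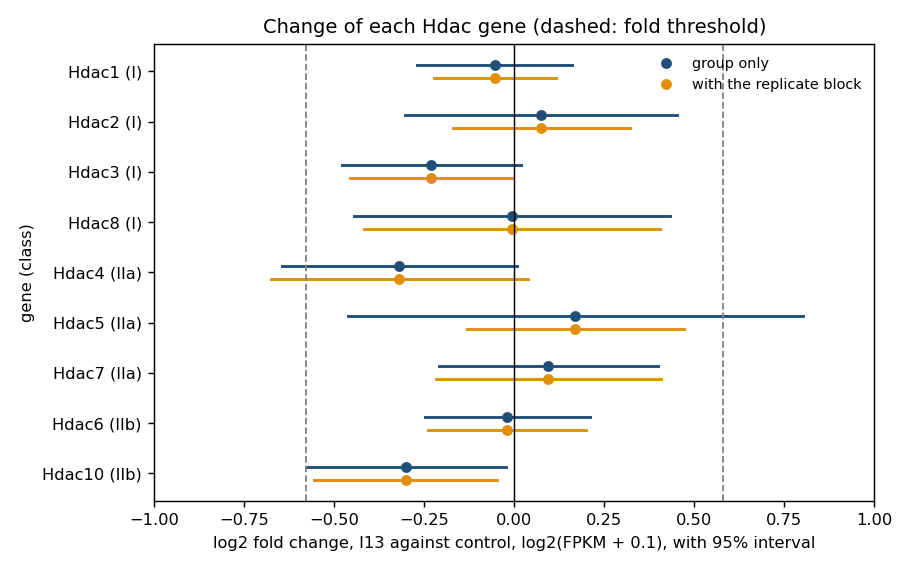
Log2 fold change of each Hdac gene with its 95% interval from limma, without (blue) and with (orange) the replicate block, with dashed lines at the fold threshold of 0.58. The intervals of Hdac4 and Hdac5 cross a dashed line in the fit without the block, and those of the other 7 genes do not.

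The precision of these estimates differed between members. In the fit without the block, the 95% intervals of 7 of the 9 genes lay within the fold threshold of 0.58 in both directions, that of Hdac10 only just, as did those of 51.3% of all genes tested. The other 2 were Hdac4 and Hdac5. The median standard error was 0.13 for the family and 0.15 for all genes tested. Counting alone would give standard errors from 0.03 to 0.07.

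The groups of 2 Hdac genes did not overlap, Hdac3 and Hdac4, both lower after I13. Over all genes tested, 15.4% did not overlap and were lower after I13, 9.82% did not overlap and were higher, and 25.2% did not overlap in either direction. When samples with the same replicate number were paired, Hdac3, Hdac4 and Hdac10 were lower after I13 in 3 of 3 pairs. Of all genes tested, 27.3% were lower in every pair and 24.1% were higher in every pair, so 3 of 9 members is near that share. The log2 differences of pairs 1, 2 and 3 were -0.40, -0.20 and -0.09 for Hdac3. For Hdac4 they were -0.17, -0.57 and -0.22. For Hdac10 they were -0.19, -0.20 and -0.52. The pair with the largest difference was thus another one for each of these genes. No other member had 3 pairs of one sign. These 3 genes kept a negative log2 fold change under all 21 alternative settings, from -0.31 to -0.15 for Hdac3, from -0.39 to -0.20 for Hdac4 and from -0.38 to -0.19 for Hdac10.

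**Figure D3:**
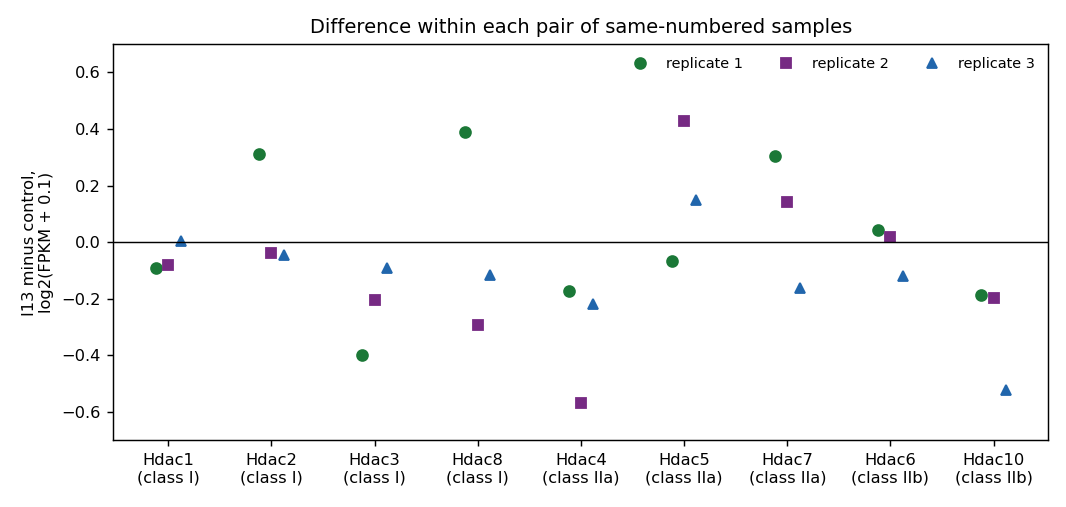
Difference in log2(FPKM + 0.1), I13 minus control, within each pair of samples that share a replicate number, for each Hdac gene. All 3 points lie below 0 for Hdac3, Hdac4 and Hdac10, and the other genes have points on both sides.

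The members differed in how their variation divided between the replicate number and the treatment. The replicate number divides the samples into more groups than the treatment does. Variation unrelated to either would thus give the number the larger share on average. The median share of the sum of squares was 49.3% for the number and 13.4% for the treatment over the 9 genes, and 42.2% and 25.9% over all genes tested. The number accounted for 85.8% of the sum of squares of Hdac5, 78.5% of Hdac1, 77.6% of Hdac2 and 61.8% of Hdac6. For these 4 genes, 13.4% or less lay between control and I13. Hdac4, Hdac10 and Hdac3 showed the opposite, with 73.4%, 63.9% and 60.2% between control and I13. For Hdac8 and Hdac7 the part left over was the largest, at 50.7% and 59.7%. What the numbers stand for is not stated in the labels.

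**Figure D4:**
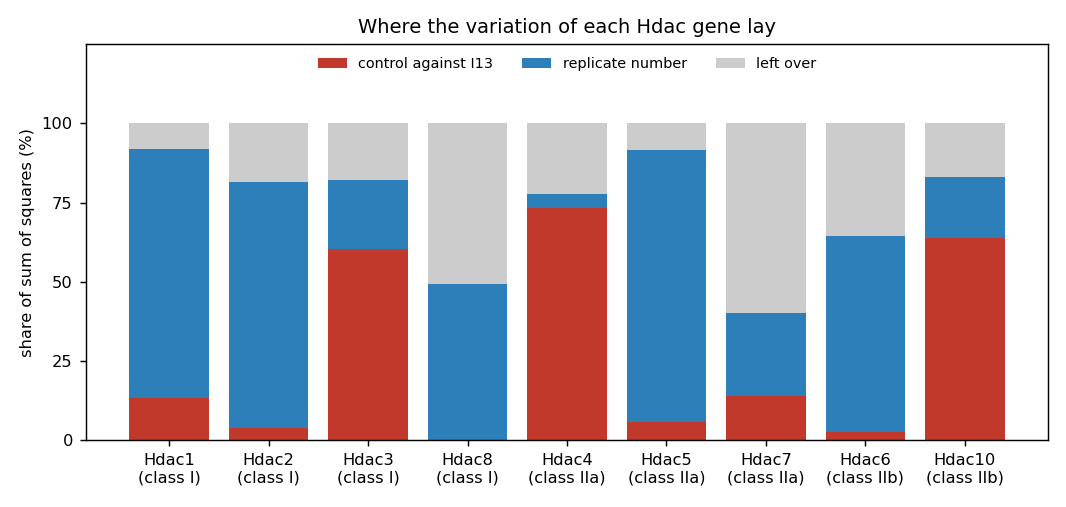
Share of the sum of squares of log2(FPKM + 0.1) over the 6 samples that lay between control and I13 (red), between replicate numbers (blue) and left over (grey), for each Hdac gene. The red part is the largest for Hdac3, Hdac4 and Hdac10 and 14.1% or less for the other 6 genes.

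The order of the levels was the same in both groups, namely Hdac1, Hdac2, Hdac3, Hdac10, Hdac6, Hdac5, Hdac7, Hdac8 and Hdac4. In the control the ranges of Hdac2 and Hdac3 overlapped, as did those of Hdac6 and Hdac5, of Hdac5 and Hdac7, and of Hdac8 and Hdac4. After I13 only Hdac6 and Hdac5 overlapped among neighbours. Hdac1 lay above 84.6% of all genes tested in mean FPKM, and Hdac4 above 24.7%. The 4 class I genes summed to 70.9 ± 5.54 FPKM in the control and 68.4 ± 5.28 FPKM after I13 (SD, n = 3 each), between 64.1% and 71.2% of the summed FPKM of the 9 genes in every sample. The 3 class IIa genes summed to 13.6 ± 2.12 and 14.1 ± 1.73 FPKM. The pair of class IIb genes summed to 18.8 ± 1.26 FPKM in the control and 16.5 ± 0.771 FPKM after I13 (SD, n = 3 each). The class IIb sum did not overlap between groups, with log2 fold changes of -0.30 for Hdac10 and -0.02 for Hdac6, each of which overlapped on its own. The class I and class IIa sums overlapped. Among single genes tested, 15.4% did not overlap and were lower after I13. All 9 genes together summed to 103 ± 2.28 FPKM in the control and 98.9 ± 4.25 FPKM after I13 (SD, n = 3 each), and these groups overlapped.

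The genes with the pattern most like that of Hdac10, the member with the smallest p, were Ep300, Mettl7a1 and Dtnb. Their Pearson correlations with Hdac10 over the 6 samples were 0.989, 0.986 and 0.985, as descriptions only, since 213 genes had a correlation above 0.9 over so few samples. A correlation does not take the size of a change into account. The log2 fold changes were -0.10 for Ep300, -0.42 for Mettl7a1 and -0.24 for Dtnb, against -0.30 for Hdac10. Ep300 encodes a lysine acetyltransferase, the activity that HDACs oppose, and its groups overlapped.

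The enzymes that add acetyl groups were compared next, in a list of 12 lysine acetyltransferases of which 11 were tested. This list and the later ones were chosen with earlier results of these data known, so their counts are descriptions only. None of the 11 was called, and with the block none passed both thresholds. The log2 fold change was negative for 9 of the 11 and positive for 2, with a median of -0.23 against -0.01 over all genes tested. At an unadjusted p below 0.05 and lower after I13 were 5 of them, against 10.8% of all genes, and 6 did not overlap and were lower, against 15.4%. Kat5, the catalytic subunit of the Tip60 complex, measured in the control samples 19.9, 19.6 and 16.6 FPKM, and in the I13 samples 12.4, 11.8 and 14.3 FPKM. All I13 samples were below all controls. As I13 minus control, the log2 difference was -0.54 (standard error 0.12), with an adjusted p of 0.113 from limma and 0.0706 with the block. Kat2a, the catalytic subunit of the SAGA complex, measured 46.1, 52.2 and 44.3 FPKM without I13 and 31.6, 37.9 and 33.6 FPKM with it. It had a log2 fold change of -0.47 (standard error 0.11), with an adjusted p of 0.115 from limma and 0.044 with the block, under the fold threshold. Of the 11 it alone passed the threshold on the adjusted p under the block, which 1.24% of all genes tested passed and were lower. Its adjusted p from limma lay between 0.0762 and 0.305 when both samples of 1 replicate number were left out of that fit. With voom and the block, Kat5 also had an adjusted p below 0.05, at 0.0246.

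Of the 26 genes listed for the scaffolds of the class I complexes, 25 were tested and 0 were called. Their median log2 fold change was -0.06, with 16 negative and 9 positive. Of the 25, 5 had an unadjusted p below 0.05, all lower after I13, where 10.8% of all genes tested were so and lower, and 18.6% were so in either direction. With the block, 1 of the 25 passed both thresholds, where 0.526% of all genes tested did so and were lower. No scaffold gene was called when both samples numbered 1 were taken out of the fit with the block, where 83 of all genes tested were called. Without those numbered 2 or 3, 0 of all genes tested were called, so those fits say nothing about the scaffold genes in particular. Mbd3, a subunit of the NuRD complex, was at 63.1 ± 5.85 FPKM in the control and 45.1 ± 1.17 FPKM after I13 (SD, n = 3 each). The estimated log2 fold change was -0.48 (standard error 0.09), with an adjusted p of 0.109 from limma and 0.0447 with the block, under the fold threshold. Mta1, a further NuRD subunit and named here after its value was seen, had a log2 fold change of -0.42 and an adjusted p from limma of 0.109, or 0.0454 with the block.

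The partners of the class IIa enzymes, the MEF2 factors, the kinases that drive these enzymes out of the nucleus and the 14-3-3 proteins that hold them in the cytoplasm, made up a list of 18 genes. Of these 12 were tested, and 0 were called without the block (0.0411% of all genes tested) or with it (1.89%). The median log2 fold change was 0.06, with 5 negative and 7 positive. Among the 12, the groups of 3 did not overlap and were higher after I13, against 9.82% of all genes tested. Those of 1 did not overlap and were lower, against 15.4%, where 25.2% of all genes did not overlap in either direction. The only one at an unadjusted p below 0.05 was Ywhag, against 18.6% of all genes. This 14-3-3 gene, named here after its value was seen, was at 66.2 ± 0.712 FPKM in the control and 76.3 ± 1.46 FPKM after I13 (SD, n = 3 each). It had a log2 fold change of 0.20 with an adjusted p of 0.21 from limma. The 2 largest in size of the 12 were both negative. Sik1, a salt-inducible kinase, had a log2 fold change of -0.28 with an adjusted p of 0.326 from limma. Ywhae, a 14-3-3 gene at 304 ± 30.5 FPKM in the control and 262 ± 15.1 FPKM after I13 (SD, n = 3 each), had one of -0.21 with an adjusted p of 0.317 from limma.

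A list of 5 genes known to rise with HDAC inhibitors was examined at the mRNA level. It was chosen with earlier results of these data known, so its counts are descriptions and do not test exposure. None of the 5 was called in the fit without the block, and their median log2 fold change was 0.89. At an unadjusted p below 0.05 and higher after I13 were 3 of the 5, against 7.79% of all genes tested. With the block 2 of the 5, Txnip and Clu, passed both thresholds, where 1.36% of all genes did so and were higher. Txnip, an inhibitor of thioredoxin, measured 39.4, 24.6 and 35.4 FPKM without I13 and 67.7, 53.6 and 60.6 FPKM with it. All I13 samples were above all controls. This made a log2 fold change of 0.89 (standard error 0.18), with an adjusted p of 0.109 from limma and 0.0322 with the block. Clu, which encodes the chaperone clusterin, measured in the control samples 26.8, 26.9 and 59.4 FPKM, and in the I13 samples 64.4, 91.7 and 122 FPKM. The groups did not overlap, though control replicate 3 was close to I13 replicate 1. As I13 minus control, the log2 difference was 1.36 (standard error 0.35), with an adjusted p of 0.132 from limma and 0.0322 with the block. Gsn, which encodes the actin-severing protein gelsolin, measured 65.2, 50.6 and 277 FPKM without I13 and 214, 272 and 484 FPKM with it. Control replicate 3 overlapped the I13 samples. It had a log2 fold change of 1.65 (standard error 0.63), with an adjusted p of 0.228 from limma and 0.0504 with the block, and leaving out 1 sample gave values from 1.179 without control replicate 2 to 2.403 without control replicate 3. Without both samples numbered 1 the block still called Txnip but not Clu, where 83 of all genes tested were called. Without those numbered 2 or 3 it called 0 of all genes tested, and so neither of these. In these fits the log2 fold change ran from 0.778 to 0.951 for Txnip and from 1.152 to 1.514 for Clu.

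The remaining genes of that list did not pass with or without the block. Cdkn1a, which encodes the cell cycle inhibitor p21, was at 124 ± 23.2 FPKM in the control and 148 ± 29.9 FPKM after I13 (SD, n = 3 each). On the log2 scale the difference was 0.25 (standard error 0.19), with an adjusted p of 0.504 from limma. H1f0, a linker histone gene, was at 116 ± 17.6 and 115 ± 16.5 FPKM (SD, n = 3 each), which is -0.01 on the log2 scale, with a 95% interval from -0.37 to 0.35.

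**Figure D5:**
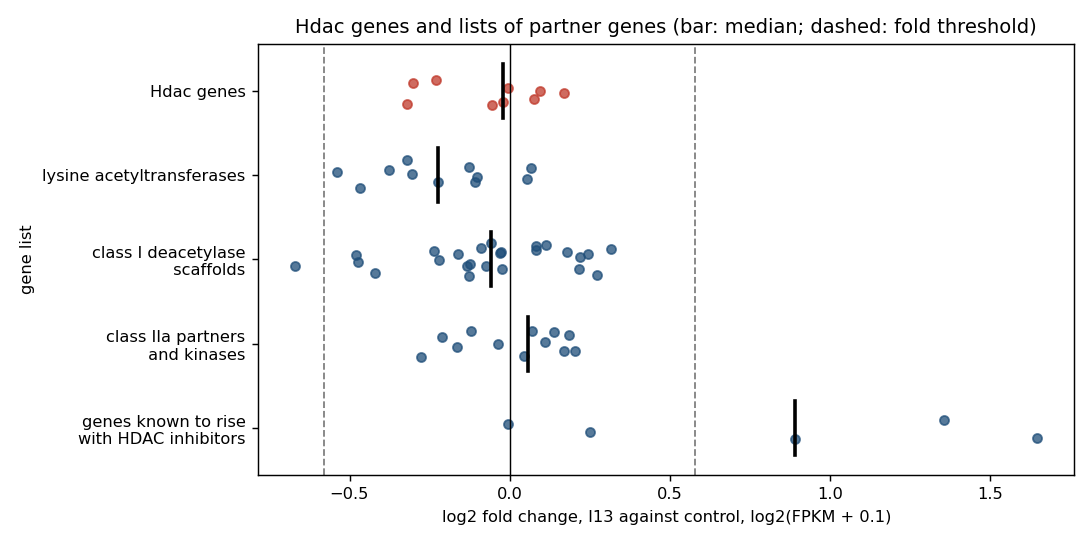
Log2 fold changes of the 9 Hdac genes (red) and of the tested members of the 4 lists of related genes (blue), 1 point per gene with a random vertical offset, with a black bar at each median and dashed lines at the fold threshold of 0.58. The Hdac genes lie between -0.32 and 0.17, and Txnip, Clu and Gsn in the last list lie past the dashed line on the right.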

How the data were processed

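mRNA of BaF3-T315I cells was sequenced from stranded libraries in 3 control and 3 I13 samples, and the authors deposited FPKM values for 22413 genes, normalized for gene length and library total, without pooling. The submitters' processing notes name Trimmomatic, HISAT2, Cufflinks, HTSeq and the build hg38, although the identifiers are mouse; versions, annotation and the strand setting of the counting are not given in the sources used here. No mouse genome was used, so no coordinates, sequences or overlaps with neighbouring genes are given. No column of per-sample values was left without a sample.

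Whole fragments were recovered from the FPKM within 0.03 fragments for 99.99% of genes, as the gene length and library totals that give whole numbers in all samples. Intervals for counting cover counting error only. limma 3.58.1 in R 4.3.3 was fitted to log2(FPKM + 0.1) with eBayes and a trend over 12163 genes averaging 0.5 FPKM or more. The pseudocount shrinks the fold changes of low genes. The scripts were tested on simulated data. The thresholds are those of the study, which names no test.

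Deviations of same-numbered samples from their group means correlated across genes at 0.15, 0.30 and 0.22 for replicates 1, 2 and 3, and those of other pairs between -0.26 and 0.05. The same-numbered values were all above 0.1, so the replicate numbers in the labels were taken to pair the samples. The number was also fitted as a block. Deviations from a group mean cancel within the group, so the values of the other pairs are not independent of the same-numbered ones.

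The members and lists were chosen with earlier results of these data known. The genes named are all Hdac members, the genes called in each list or else its 2 largest changes, and the 3 genes most like the Hdac gene with the smallest p. Mta1, Ywhag, Txnip, Cdkn1a, H1f0 and the markers are named outside that rule, after their values were seen. Values of some list genes are not reported here. A list gene was not analysed here where no row carried its symbol. Figures were drawn with matplotlib 3.10.9.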

Additional observations from a re-analysis of the deposited data

How the results depend on the processing

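No Hdac gene was called under any of the 21 alternative settings, 18 planned and 3 added after seeing the data. Many of these settings could hardly call one. With any 1 sample left out, or with the block but without number 2 or 3, 0 of all genes tested were called. The other fits without the block called from 2 to 8. Only the block (230), voom with the block (500) and the block without number 1 (83) called more. Of the 189 Hdac values, 168 kept their direction. The others belonged to 6 genes. When 1 sample was left out, the log2 fold change ran from -0.099 to 0.001 for Hdac1 (positive without control replicate 1), from -0.022 to 0.223 for Hdac2 (negative without either control replicate 3 or I13 replicate 1) and from -0.195 to 0.106 for Hdac8 (positive without control replicate 2, I13 replicate 2 or I13 replicate 3). It ran from -0.071 to 0.391 for Hdac5 (negative on leaving out control replicate 2 or I13 replicate 3), from -0.004 to 0.179 for Hdac7 (negative without control replicate 1) and from -0.062 to 0.014 for Hdac6 (positive without control replicate 3 or I13 replicate 2). Median-ratio scaling gave 0.014 for Hdac8 and 0.0 for Hdac6, rescaling to TPM gave 0.023 and 0.009, and voom with the replicate block gave 0.011 for Hdac8. In the added fits with the block but without both samples of one number, Hdac2 was at -0.043 and Hdac7 at -0.011 without number 1, Hdac8 at 0.138 without number 2, and Hdac8 at 0.049 and Hdac6 at 0.031 without number 3.

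Over all genes tested, 5 were called. With a pseudocount of 0.01, median-ratio scaling or quantile normalization 2 were called, and without a filter or without a trend 8. With the replicate block 230 were called, with voom and the block 500, and with any 1 sample left out from 0 to 0. The block without both samples numbered 1 called 83, and without those numbered 2 or 3 it called 0. With the block, 1 scaffold gene was called, and again 1 with voom and the block. Of the genes known to rise with HDAC inhibitors 2 were called with the block, 3 with voom and the block, and 1, Txnip, with the block but without number 1. The causes were not tested. Among the genes named, the block otherwise changed only the calls of the markers Csf2rb, Csf2rb2, Adgre1 and Hba-a1. The fold changes of the related genes named by rule from the lists kept their direction under every setting.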
